A study of Mus musculus with 49 samples.

Results

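The genes described here are 10 genes of the absorptive intestinal epithelium, out of 46078 identifiers in the deposited table of counts, followed through 16 conditions in which mouse hepatocytes lose their identity in culture and are turned into aggregates or intestinal organoids. They are Vil1, Alpi, Sis, Lct, Mep1a, Mep1b, Dpp4 and Fabp2, and apart from these Fabp1 and Anpep, which the liver is also known to express. They were found by gene symbol, and each symbol belonged to a single row. In GENCODE M21 (GRCm38) all 10 are protein-coding genes. The question behind the comparisons was how far cells of hepatocyte origin take on the transcripts of enterocytes, and how far they differ from organoids grown from intestine.

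Enterocytes carry on their apical face a brush border of densely packed microvilli, each built on a bundle of actin filaments held together by villin and other proteins. Hydrolases anchored in this membrane finish the digestion of sugars, peptides and phosphate esters, and transporters take up the products. Inside the cell, fatty-acid-binding proteins carry the absorbed lipids from the membrane to the endoplasmic reticulum. Hepatocytes also have an apical face with microvilli, the bile canaliculus, and use the liver type fatty-acid-binding protein at a high level. Transcription factors of the Cdx, Hnf1 and Hnf4 families are known regulators of enterocyte genes.

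All cells came from wild-type C57BL/6J mice, and the adult donors were 10 weeks old. Fresh hepatocytes (FH, n = 3) were compared with hepatocytes 3 h, 1 day, 2 days, 4 days, 7 days and 14 days after plating in monolayer with EGF (n = 3 each), and with dediHeps, which are hepatocytes dedifferentiated in the same medium (n = 5). Hepatocytes cultured for 7 days with 0.3 µM verteporfin, an inhibitor of Yap, or with DMSO (n = 2 each), and CLiPs, obtained in monolayer with small molecules that include a TGF-β receptor inhibitor and CHIR99021 (n = 3), were further monolayer groups. In 3D culture there were dediHep aggregates in low-attachment wells (n = 3), spherical organoids of dediHeps (dediHep-SOs, n = 3) and spherical organoids of fetal intestinal progenitor cells from E13.5 embryos (FIPC-SOs, n = 3), grown in Matrigel with Wnt3a and CHIR99021 beside EGF, Noggin and R-spondin1. Budding organoids came from dediHeps carrying Cdx2 from a retrovirus (dediHep-BOs, n = 3) and from crypts of adult small intestine (ISC-BOs, n = 4), in medium without Wnt3a and CHIR99021, to which the dediHep-BOs were moved only after passaging.

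Within the dediHep and within the intestinal organoids, the spherical and budding kinds thus differ in more than their shape. The dediHep-BOs differ from dediHep-SOs in the added Cdx2 and in the medium, which cannot be told apart, and the ISC-BOs differ from FIPC-SOs in the age of the intestine and in the medium. In dediHep-BOs the counts do not separate transcripts of the vector from those of the cell's own Cdx2. Nothing in the labels ties the replicates to separate animals, so p-values measure the spread between these libraries, which may in part be technical.

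Each library was read at the 3′ end of transcripts by CEL-Seq2, with a count of unique molecular identifiers (UMIs) per gene, so that a transcript counts once whatever its length. The libraries held 861047 to 3872936 counts (median 1976760), and 3 counts correspond to 0.775 to 3.48 CPM (counts relative to the library's total) depending on the library. CPM below are scaled with TMM factors over all 49 libraries and given as mean ± SD. A gene is called when the edgeR quasi-likelihood test gave a false discovery rate (FDR) under 0.1 over all genes tested and the size of the log2 fold change exceeded 2. A fold against a group without counts is a bound, taken against 3 counts over that group. Fresh hepatocytes held all 8 hepatocyte markers and all 9 markers of non-parenchymal liver cells that were looked at, the latter with a summed level of 159.9 to 316.2 CPM, against 0.906 to 2.24 CPM in dediHeps. Albumin (Alb) was at 0 in 12 of 13 organoid libraries and at 0.847 CPM in the remaining one, an ISC-BO library. The collagen transcripts Col1a1 and Col3a1 stood out in 2 dediHep-BO libraries and 1 FIPC-SO library, where the non-parenchymal markers summed to 164.1, 193 and 365.3 CPM against 12.5 CPM or less in the other organoid libraries. Results that rest on these 3 libraries are also given without them. In bulk samples, fewer enterocyte-like cells and less RNA per cell cannot be told apart.

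Promoter sequences are shown first, because the groups differ in Cdx2, the factor added to make dediHep-BOs. RefSeq (GRCm38.p6) gave the stretch from 250 bases before to 50 bases after the start of 9 of the 10 genes, without Mep1b. The letters TTTATG, a core bound by Cdx factors, were searched on both strands and stood in 4 of the 9 stretches (Sis, Lct, Mep1a and Fabp1), against 11.85% of the 32851 promoters of the same length. The motifs were chosen after the counts had been seen, and a match is a run of letters, not a measured binding site. Below, 30 bases around each match are written 5′ to 3′ on the strand of the gene, with TTTATG or its reverse complement CATAAA in capitals.
Sis, chr3:72967889-72967918, minus strand: gtgcaataaaacTTTATGagtagtcaatat
Lct, chr1:128328332-128328361, minus strand: cttggctgtgctCATAAAgtcaggattcct
Mep1a, chr17:43502743-43502772, minus strand: gtccaataggttTTTATGgcaaggaggctt
Fabp1, near match, chr6:71199779-71199808, plus strand: tttgagcctggcCATAAAtaaatcgacaat
Fabp1, far match, chr6:71199641-71199670, plus strand: gggttaagtcacCATAAAggcaacatttac
The matches of Sis and Lct began 43 and 31 bases before the start, those of Fabp1 88 and 226 bases before it, and that of Mep1a lay just after it. These distances are counted from the RefSeq start, which for Fabp1 and Mep1a is not the GENCODE start of the coordinates given with each gene.

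An Hnf1-type run, GTTAAT on either strand, stood in 2 of the 9 stretches (Sis and Fabp1) against 7.1% of all promoters. The Hnf4-type run CAAAGTCCA stood in 1 (Alpi) against 0.47%. The windows below carry these runs in capitals, again on the strand of the gene. Fabp1 and Sis thus hold both a Cdx-type and an Hnf1-type run. No letters of these 3 kinds were found in the stretches of Vil1, Anpep, Dpp4 and Fabp2, which says nothing of the factors beyond this window.
Sis, chr3:72968011-72968040, minus strand: acacagttattaATTAACttggcatgtcag
Fabp1, chr6:71199760-71199789, plus strand: ttgctctcaggaGTTAATgtttgagcctgg
Alpi, chr1:87101606-87101635, minus strand: tagccagggaCAAAGTCCAtctctgatttg

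Across the 16 conditions the 10 genes took up between 0.000910% and 0.397% of the counts of a library. The share was 0.126% to 0.153% in fresh hepatocytes, most of it Fabp1, and 0.164% to 0.194% at 3 h. It was at most 0.0155% in the libraries from 1 day to 14 days, 0.00392% to 0.0562% in dediHeps and 0.0292% to 0.0435% in dediHep-SOs. In dediHep-BOs it stood at 0.212% to 0.275% and in ISC-BOs at 0.242% to 0.397%. The heat map of all libraries shows that different genes made up the high ends: Fabp1, Fabp2, Dpp4 and Anpep in hepatocytes, and the whole set in budding organoids.

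**Figure D1:**
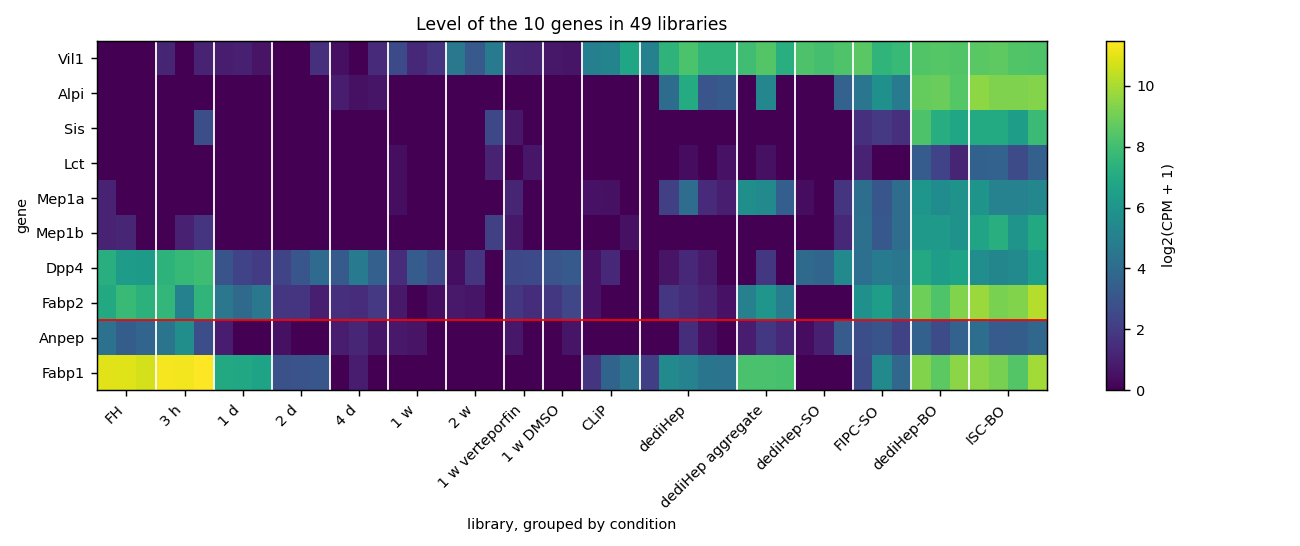
Level of the 10 genes (rows) in each of 49 libraries (columns, grouped by condition with white lines) as log2(CPM + 1) on the colour scale. Fabp1 and Anpep stand under the red line. All 10 rows are lit in ISC-BOs and dediHep-BOs, while Sis, Lct and Mep1b are dark in dediHeps and aggregates or close to it.

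Vil1 (chromosome 1, 74409376 to 74435559, plus strand) encodes villin, which bundles and severs actin in the microvillus core. Its 3′ UMIs were absent from all 3 FH libraries and 14 days after plating stood at 23.2, 8.21 and 26.6 CPM. In dediHeps the 5 libraries held 32.4, 175, 297, 183 and 180 CPM. Every cultured dediHep library thus lay above every FH library, and dediHeps were called higher, by at least 161.6-fold (FDR = 0.000226). In the later groups it was 252, 338 and 144 CPM in aggregates, 312, 273 and 316 CPM in dediHep-SOs, 374, 183 and 209 CPM in FIPC-SOs, 332, 351 and 325 CPM in dediHep-BOs and 368, 401, 333 and 322 CPM in ISC-BOs. None of the comparisons among these groups called Vil1. CLiPs held less, with 29.6, 35.5 and 106 CPM, overlapping the lowest dediHep library (log2 fold change -1.57 ± 0.67 SE, FDR = 0.268).

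Alpi (chromosome 1, 87098002 to 87101606, minus strand), intestinal alkaline phosphatase, removes phosphate from lipids and bacterial products at the brush border. It was at 0 in FH, and the dediHep libraries differed widely among themselves, at 0, 15.6, 131, 7.10 and 8.51 CPM. The group was called higher than FH (FDR = 0.0491), but the ranges touched at 0 and the call was lost on leaving out any 1 FH library (FDR = 0.103 to 0.115). In aggregates and dediHep-SOs only 1 library of 3 held Alpi, at 38.6 and 11.1 CPM, and both of these bear the culture code of the second dediHep library. The code did not predict Alpi, however. The second dediHep-SO library bears the code of the third dediHep library (131 CPM) and had no count. All FIPC-SO libraries held it, at 21.8, 53.3 and 25.4 CPM. The budding organoids stood far above, at 429, 467 and 344 CPM in dediHep-BOs and 741, 619, 611 and 649 CPM in ISC-BOs.

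Sis (chromosome 3, 72888557 to 72967863, minus strand) encodes sucrase-isomaltase, which splits sucrose and starch products. It was found almost wholly in budding organoids, with 304, 140 and 110 CPM in dediHep-BOs and 128, 128, 85.6 and 226 CPM in ISC-BOs. FIPC-SOs held 1.95, 2.80 and 1.93 CPM. No dediHep, aggregate, dediHep-SO or CLiP library had a count. Among the other libraries 3 held 1 to 5 counts: the third library at 3 h (5 counts), the third at 14 days (4 counts) and 1 library with verteporfin (1 count).

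Lct (chromosome 1, 128284756 to 128328318, minus strand), lactase, splits milk sugar and is highest in the suckling gut. It was the scarcest of the enzymes, with 19, 9 and 3 counts in dediHep-BOs and 20, 27, 12 and 24 counts in ISC-BOs. These correspond to 9.22, 3.97 and 1.25 CPM and to 10.8, 11.3, 5.08 and 10.5 CPM. Outside budding organoids no library had more than 3 counts. Lct was therefore testable in 4 comparisons only, all with ISC-BOs.

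Mep1a (chromosome 17, 43474324 to 43502812, minus strand) and Mep1b encode the subunits of meprin, a metalloprotease of the brush border. Mep1b had no count in any of the 5 dediHep and 3 aggregate libraries, whereas Mep1a stood at 0, 3.52, 16.01, 1.58 and 0.946 CPM in dediHeps and at 51.6, 44.3 and 9.67 CPM in aggregates. In both kinds of budding organoid the pair was present, with Mep1a at 56.7 ± 8.71 CPM and Mep1b at 66.5 ± 8.27 CPM in dediHep-BOs (n = 3) and 41.3 ± 12.7 and 110 ± 39.3 CPM in ISC-BOs (n = 4). FIPC-SOs held both, at 13.4 ± 5.24 and 14.1 ± 5.31 CPM (n = 3), and dediHep-SOs held 6 and 3 counts over 3 libraries.

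Dpp4 (chromosome 2, 62330073 to 62412231, minus strand), dipeptidyl peptidase 4, cuts dipeptides from incretins and food peptides and is known in enterocytes, kidney and bile canaliculi. Fresh hepatocytes held 147, 80.8 and 75.3 CPM, and dediHeps 0, 0.502, 1.51, 0.789 and 0 CPM. In dediHep-SOs Dpp4 stood at 14.8, 12.4 and 42.6 CPM, above every dediHep library. The dediHep-BOs held 121, 83.8 and 98.9 CPM, overlapping FH, and ISC-BOs 49.2, 38.0, 43.6 and 83.0 CPM. An antisense gene, Gm13561, overlaps Dpp4. Also on the opposite strand, the protein-coding gene Usp37 overlaps Vil1 and the pseudogene Gm6378 overlaps Mep1b, and Gm44974 overlaps Anpep on the same strand. Whether the counting used strand was not given in the sources used here.

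Fabp2 (chromosome 3, 122895072 to 122899506, plus strand) encodes the intestinal fatty-acid-binding protein. It is usually taken as a gut gene, yet FH held 124, 211 and 167 CPM. In dediHeps it was at 0 to 2.51 CPM, in aggregates at 31.5, 61.6 and 27.0 CPM and in dediHep-SOs at 0 in all 3 libraries. FIPC-SOs held 53.8, 84.8 and 27.0 CPM, dediHep-BOs 496, 316 and 624 CPM and ISC-BOs 858, 580, 624 and 1190 CPM. The antisense gene 4933405D12Rik overlaps it. The last 500 bases of the transcripts of all 10 genes shared 0 of 470 runs of 31 bases with any other gene, Fabp1 and Fabp2 included.

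Fabp1 (chromosome 6, 71199827 to 71205023, plus strand), the liver type fatty-acid-binding protein, is known in hepatocytes and in proximal enterocytes. It had its highest levels in hepatocytes, at 1967, 1920 and 1732 CPM in FH and 2539, 2461 and 2853 CPM at 3 h. The dediHeps held 3.35, 42.2, 33.5, 20.9 and 19.4 CPM, aggregates 290, 293 and 284 CPM, and dediHep-SOs no count. With dediHep-BOs at 634, 380 and 712 CPM and ISC-BOs at 722, 563, 342 and 958 CPM, budding organoids stood between aggregates and FH. The deposited counts of such genes are compressed at the top: with UMIs of 6 bases, a correction for molecules that share one raises the highest count of Fabp1 (2451) to 3737 and of Fabp2 (2724) to 4480.

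Anpep (chromosome 7, 79821803 to 79861059, minus strand), aminopeptidase N, trims peptides at the brush border and the canaliculus. FH held 18.9, 9.58 and 12.4 CPM, hepatocytes after 3 h of culture 20.4, 50.7 and 5.82 CPM, dediHep-BOs 10.7, 5.29 and 11.3 CPM, ISC-BOs 16.8, 8.78, 9.32 and 12.7 CPM and FIPC-SOs 5.85, 7.01 and 3.86 CPM. In dediHep-SOs 1 library (8.79 CPM) stood apart from the others (0.321 and 0.992 CPM), and it bears the same culture code as the aggregate with the highest Anpep (2.60 CPM). The dediHep monolayer of that code had no Anpep count. The dediHep monolayer with the most (1.81 CPM) shares its code with the dediHep-SO library at 0.992 CPM. CLiPs had no count.

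**Figure D2:**
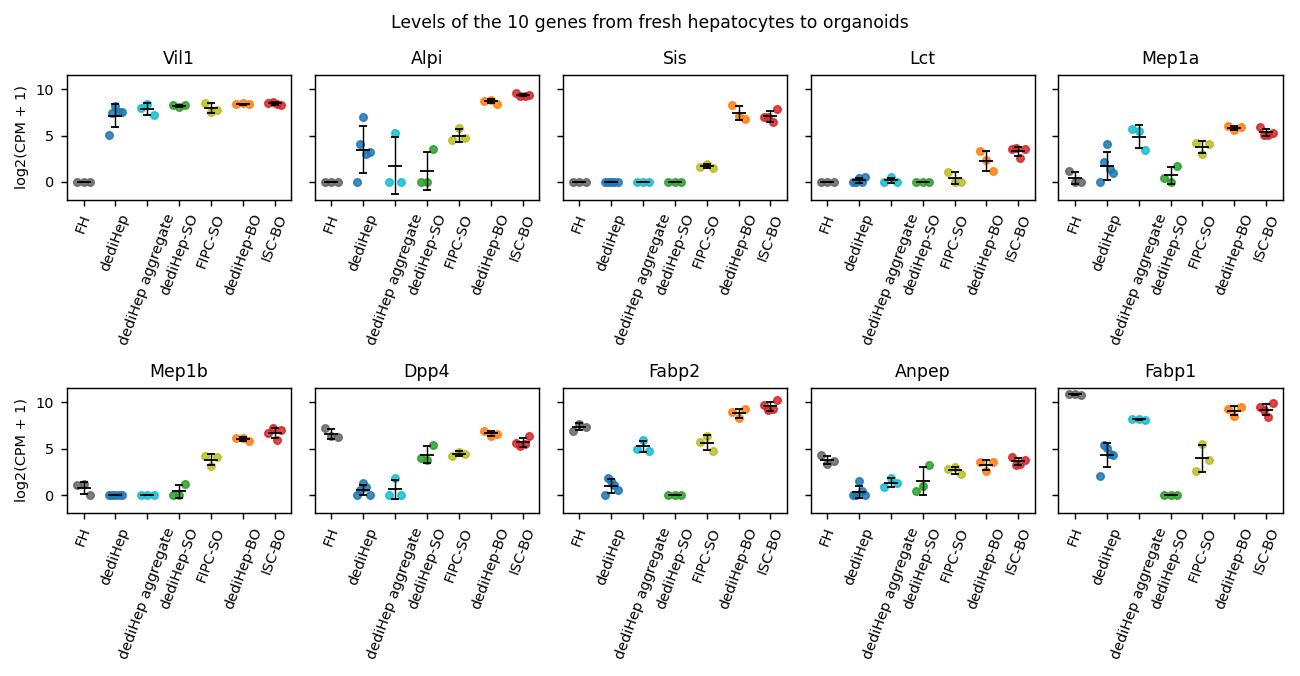
Each panel plots 1 gene as log2(CPM + 1) in 7 conditions from fresh hepatocytes to organoids, with a point per library and the mean ± SD of the log values as a bar. Vil1 is present in every library from dediHeps on, and Fabp2 and Fabp1 drop to 0 in dediHep-SOs. The dediHep-BO and ISC-BO points lie apart for Alpi, while for Dpp4 the nearest points almost touch (83.8 and 83.0 CPM).

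In monolayer culture the 4 genes that fresh hepatocytes expressed fell, and Vil1 rose late. Fabp1 went from 1873 ± 124 CPM in FH to 112 ± 11.2 at 1 day and 6.69 ± 0.559 at 2 days (n = 3 each), to 2 counts over the 3 libraries at 4 days and to 0 at 7 and 14 days, at least 4915-fold and 3337-fold lower. Fabp2 fell from 167 ± 43.5 to 19.9 ± 4.57 CPM at 1 day and 2.48, 2.33 and 0.973 CPM at 2 days. Both genes were called lower at each time from 1 day on (log2 fold change -4.15 ± 0.34 SE, FDR = 4.45e-08 for Fabp1, and -3.17 ± 0.49 SE, FDR = 3.06e-05 for Fabp2, at 1 day).

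Dpp4 and Anpep follow. Dpp4 stood at 171, 207 and 242 CPM at 3 h, above all FH libraries, but was not called (log2 fold change 1.01 ± 0.50 SE, FDR = 0.193). At 1 day it held 6.94, 4.03 and 3.05 CPM, at 4 days 8.54, 25.4 and 10.4 CPM, and at 14 days 0.357, 2.35 and 0 CPM. All 5 times from 1 day on were called lower than FH. Anpep was called lower at the same times, with at most 3 counts in any library from 1 day on. Vil1 had 0 to 4 counts per library until 4 days, 14, 3 and 7 counts at 7 days and 65, 14 and 23 at 14 days, and was called higher at 7 days (FDR = 0.0365) and 14 days (FDR = 0.000330, at least 16.1-fold).

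Of the 10 genes, 5 could be tested in the time course. None was called at 3 h, where 6.9% of all 12443 genes tested were called and 0 of the 5 had an unadjusted p under 0.05. At 1, 2 and 4 days 4 genes were called, all lower, where 17.4%, 21.3% and 23.8% of all genes were called and 10.9%, 12.1% and 12.4% called lower. At 7 and 14 days 5 were called, 4 lower and Vil1 higher, where 25.9% and 29.5% of all genes were called in either direction. The summed level of the 8 hepatocyte markers fell alongside, from 20130 to 23630 CPM in FH to 7022 to 8256 at 1 day and 1138 to 1474 at 14 days. Its part in the decline of the 4 genes was not tested. The median of all genes stood at a log2 fold change of 0.169 at 7 days and 0.103 at 4 days, small against these changes.

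**Figure D3:**
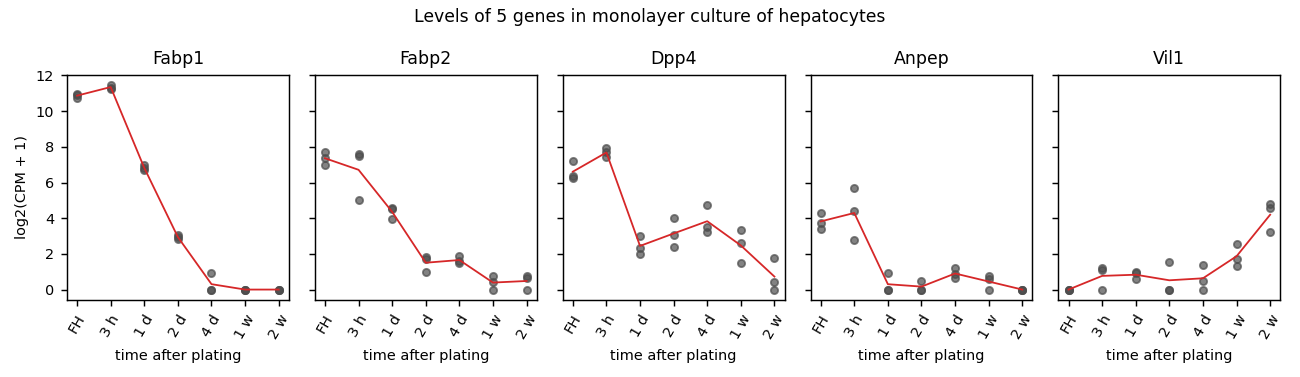
Points are libraries (3 per time) and the line joins means of log2(CPM + 1) from FH to 14 days (2 w) after plating, on a categorical time axis. Fabp1 and Fabp2 fall from 3 h on, Dpp4 points at 3 h lie above those of FH, a difference that was not called, and all later points lie below, and Vil1 climbs only at 1 and 2 weeks.

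Between dediHeps and FH the balance of the 10 genes had turned. Vil1 and Alpi were called higher, and Dpp4 (log2 fold change -7.27 ± 0.65 SE, FDR = 9.71e-06), Fabp2 (-7.11 ± 0.58 SE, FDR = 5.07e-06), Fabp1 (-6.41 ± 0.61 SE, FDR = 1.31e-05) and Anpep (-4.60 ± 0.83 SE, FDR = 0.00115) lower. That is 6 of 10 genes called, where 25.7% of 11276 genes tested were called. Sis, Lct, Mep1a and Mep1b did not reach the filter on low counts. Beside Vil1, 4 of 6 tested genes of microvillus structure (10 on the list) were called higher, led by Ezr, ezrin, which links actin to the membrane (log2 fold change 6.37), and Pls1, an actin bundler (10.96). Of 10 other apical hydrolases 2 were tested and both were called lower (Mme and Mgam), and of 10 apical transporters 2 of 3 tested (Slc2a2 and Slc10a2). Bile duct markers rose in the same comparison, with 3 of 4 tested called higher, led by Krt7 (log2 fold change 10.06) and Spp1 (6.97).

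The dediHep libraries were not alike. The third had the most Alpi, Mep1a, Anpep and Vil1, and also the most Cdx2 (119 CPM) and Krt19, a keratin of bile duct and gut epithelium (501 CPM). The first had the least Vil1 and Fabp1 and no Alpi, Mep1a or Fabp2, with Cdx2 at 2.24 CPM. The others held Cdx2 at 69.8, 32.0 and 8.99 CPM and Krt19 at 83.9 to 126 CPM. Cdx2 was at 0 in FH, in all libraries of the time course, with verteporfin or DMSO, and in CLiPs.

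Aggregates gained fatty-acid-binding transcripts. Fabp2 was 40.0 ± 18.8 CPM (n = 3) against 1.20 ± 1.01 CPM (n = 5) in dediHep monolayers (log2 fold change 4.95 ± 0.63 SE, FDR = 0.000988) and Fabp1 289 ± 4.75 against 23.9 ± 14.8 CPM (3.59 ± 0.54 SE, FDR = 0.00268), with no overlap between the groups. Mep1a was called higher as well (2.87 ± 0.96 SE, FDR = 0.0682), but 1 aggregate library lay within the dediHep range, and the call did not survive leaving out aggregate 1, aggregate 2 or dediHep 2 (FDR = 0.196, 0.168 and 0.128). Hence 3 of 10 genes (5 tested) were called, all higher, where 9.51% of 11265 tested genes were called and 4.39% called higher. Vil1 (0.49 ± 0.54 SE, FDR = 0.546) and Alpi (-1.33 ± 1.59 SE, FDR = 0.586) were not called, and Sis and Mep1b had no count in either group.

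Other genes of lipid handling moved the same way in aggregates, 4 of 8 tested being called higher, led by Cd36, a fatty acid receptor (log2 fold change 6.85), and Mttp, which loads lipid onto apolipoprotein B (3.53). Slc2a2 (5.69) and Slc3a1 (2.25) were called among 3 apical transporters tested, and Treh and Ggt1 among 2 hydrolases. Markers of hepatocytes rose in the same libraries, with 5 of 6 tested called higher and a summed level of 6792 to 12180 CPM against 436 to 3110 CPM in monolayers. Cdx2 stood at 4.03, 23.4 and 5.60 CPM and was not called (log2 fold change -2.05, FDR = 0.205). Of the 10 genes of microvillus structure 8 were tested and 0 called.

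CLiPs and the verteporfin pair gave little. In CLiPs against dediHeps, 3 genes could be tested and 0 were called, where 3.04% of 11567 genes were called. Alpi was at 0 in all 3 CLiP libraries and in the first dediHep library, and the third dediHep library held 435 of the 502 dediHep counts. Its FDR was 0.126 and that of Vil1 0.268, and 2 of the 3 tested had an unadjusted p under 0.05. DESeq2 called 1 of them (Alpi, adjusted p = 0.0101). With verteporfin only Dpp4 was tested, at 4.53 and 4.96 CPM against 7.25 and 8.39 CPM with DMSO (log2 fold change -0.69 ± 0.50 SE, FDR = 0.720). No gene of the 10 was called or had an unadjusted p under 0.05 there, and 0.269% of 10400 genes were called by edgeR. DESeq2 called 0 as well.

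The organoids were first set against FH. In dediHep-SOs, Vil1 was called higher (at least 256-fold) and Fabp1, Fabp2, Dpp4 and Anpep lower, 5 of 10 genes (5 tested) against 29.2% of 10770 tested. The call of Dpp4 (log2 fold change -2.25 ± 0.56 SE) was lost without the first FH library or without either the first or the second SO library, and that of Anpep (-2.18 ± 0.87 SE) without these or without either of the other FH libraries, which leaves 3 genes called at the lowest. In FIPC-SOs, 4 genes were called higher (Vil1, Alpi, Mep1a and Mep1b) and 2 lower (Fabp1 and Dpp4), where 30.3% of 11394 genes were called in either direction. Dpp4 missed the fold threshold without the first FH library (-1.92). In dediHep-BOs 5 genes were called, all higher (Vil1, Alpi, Sis, Mep1a and Mep1b), where 27.7% of 10971 genes were called and 14.2% called higher. In ISC-BOs 7 were called, all higher (these 5 with Lct and Fabp2), where 28.1% of 11287 genes were called and 14.8% called higher. Without the libraries rich in collagen transcripts, which leaves 1 dediHep-BO library, the counts stayed at 5 in dediHep-BOs and 6 in FIPC-SOs.

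For the genes that FH also expressed, the differences between budding organoids and FH were as follows. Dpp4 in dediHep-BOs stood at 101 ± 18.6 CPM and in FH at 101 ± 40.2 CPM (n = 3 each, 95% interval of the log2 difference -0.81 to 0.81). Anpep did not reach the threshold in either budding organoid (FDR = 0.323 and 0.646). Fabp1 was lower in both (log2 fold change -1.69 ± 0.31 SE, FDR = 0.00124 in dediHep-BOs, and -1.59 ± 0.32 SE, FDR = 0.00149 in ISC-BOs), short of the fold threshold. Fabp2 was higher than in FH by 1.53 ± 0.36 SE in dediHep-BOs (FDR = 0.00500, not called) and by 2.23 ± 0.36 SE in ISC-BOs (FDR = 0.000270). Both comparisons share the FH libraries.

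From dediHep monolayer to dediHep-SO, Dpp4 rose (log2 fold change 5.06 ± 0.75 SE, FDR = 0.00147) and Fabp1 fell from 23.9 ± 14.8 CPM to 0, at least 61.1-fold (FDR = 0.00321). These were 2 of 10 genes (4 tested), with 8.76% of 11470 tested genes called. Alpi was not called (-3.19 ± 1.70 SE, FDR = 0.271), nor was Vil1 (0.79 ± 0.49 SE, FDR = 0.349). Hence the spheres kept villin and took up Dpp4 without Sis, Lct, Fabp1 or Fabp2, at a depth where 0 of 3 libraries held a count of any of these 4.

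Set against FIPC-SOs, dediHep-SOs were lower in 5 of 10 genes (8 tested) and higher in none, where 8.9% of 11608 tested genes were called and 3.98% called lower. Fabp2 was at 0 against 55.2 ± 28.9 CPM (at least 132-fold lower, FDR = 0.000543) and Fabp1 at 0 against 20.8 ± 20.9 CPM (FDR = 0.00779), where the second FIPC-SO library held 127 of the 180 counts. Mep1b held 3 counts against 120, a ratio of 34.2 with a counting interval of 11.4 to 168 (FDR = 0.00410), and Mep1a was lower by a log2 fold change of -3.96 ± 0.79 SE (FDR = 0.00860). Alpi was called lower (-3.27 ± 1.08 SE, FDR = 0.0679), but not by DESeq2 (adjusted p = 0.322) and not on leaving out any 1 of 4 libraries, the first or second dediHep-SO or the second or the third FIPC-SO. Sis, with 0 against 19 counts, was too scarce to be tested.

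Vil1 and Dpp4 were not called. For Vil1 the log2 difference was 0.20 with a 95% interval of -0.48 to 0.87, and for Dpp4 0.08 with -0.99 to 1.15. Anpep (-0.81 ± 0.87 SE, FDR = 0.570) depended on the third dediHep-SO library, without which it was called lower (-3.16, FDR = 0.0110). Without the FIPC-SO library rich in collagen transcripts, 4 genes remained called, Alpi being lost (FDR = 0.119).

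The wider lists were counted for the same comparison. Of 10 genes of microvillus structure 5 were called lower, led by Ush1c (log2 fold change -6.22) and Cdhr2 (-3.62), which belong to the links between microvillus tips. Of 8 tested genes of lipid handling 4 were called lower, led by Mttp (-4.74) and Apoa4, an apolipoprotein of chylomicrons (-7.35), and of 4 transporters 2, Slc5a1, the sodium-glucose cotransporter (-5.97), and Slc26a3, the chloride exchanger (-5.66). Among enterocyte transcription factors Cdx1 (-8.23) and Hnf4g (-4.26) led 3 called lower of 10 tested. Of 3 tested hydrolases 1 was called lower and 1, Ace, higher (2.94). Cdx2 itself was lower (-1.96, FDR = 0.00166), just short of the fold threshold, at 87.7, 69.4 and 105 CPM against 407, 273 and 310 CPM. The median over the microvillus list was -1.79 and over all genes tested -0.0301.

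**Figure D4:**
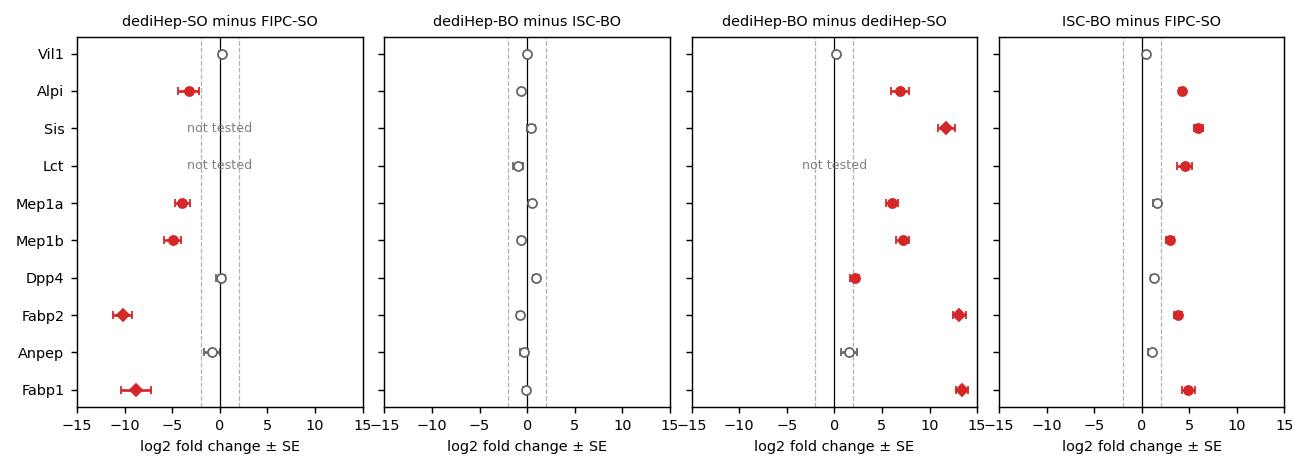
Log2 fold change ± SE (x axis) of each gene (y axis) in 4 comparisons of organoids, filled red where called, with dashed lines at -2 and 2. Diamonds mark genes without a count in 1 of the groups, whose fold depends on the prior count. All 10 genes lie inside the dashed lines for dediHep-BO against ISC-BO, and 5 lie below them for dediHep-SO against FIPC-SO.

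From dediHep-SO to dediHep-BO, 7 of 10 genes (9 tested) were called, all higher, where 11.3% of 11301 tested genes were called and 5.6% called higher. Fabp1 and Fabp2 went from 0 to 575 ± 173 and 478 ± 154 CPM, at least 1400-fold and 1168-fold, and Sis from 0 to 184 ± 104 CPM, at least 436-fold. Mep1b rose from 3 counts to 445 (ratio 161, counting interval 54.7 to 783), Alpi by a log2 fold change of 6.90 ± 0.99 SE (FDR = 0.000882) and Mep1a by 6.03 ± 0.65 SE (FDR = 0.000179). Dpp4 was called with the smallest change (2.15 ± 0.47 SE, FDR = 0.00813) and missed the threshold without the first or the second dediHep-SO library (1.91 and 1.85). Vil1 did not pass the test (0.20 ± 0.21 SE, 95% interval -0.27 to 0.66), and Anpep was called only without the third dediHep-SO library (3.89, FDR = 0.000885).

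Without the 2 dediHep-BO libraries rich in collagen transcripts, which leaves a single library in that group whose spread is assumed to be like that of the others, 6 of the 7 stayed called and Dpp4 was lost (2.13, FDR = 0.137). Against dediHep monolayers 8 genes were called higher in dediHep-BOs, all but Vil1 and the untested Lct, with 14.2% of 11766 genes called and 6.17% called higher. Without those 2 libraries 5 of the 8 stayed called, Alpi, Anpep and Mep1a being lost (FDR = 0.295, 0.120 and 0.161).

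In the wider lists, between dediHep-SOs and dediHep-BOs, 7 of 8 tested transporters were called higher, led by Slc5a1 (log2 fold change 8.97) and Slc3a1 (6.76), and 5 of 8 tested genes of lipid handling, led by Apoa4 (11.72) and Npc1l1, the sterol transporter (6.67). Of 6 hydrolases 5 were called higher, among them Mme (9.78), and Ace was called lower (-3.06). Myo1a, a motor that ties actin to the microvillus membrane (5.54), and Espn, an actin bundler (3.47), led 5 of 10 genes of microvillus structure. The factors Hnf4g (5.10) and Cdx1 (8.44) led 3 of 10 transcription factors. Cdx2 was 172, 205 and 344 CPM in dediHep-BOs, all above the dediHep-SOs, with a log2 fold change of 1.49 (FDR = 0.00812).

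Between dediHep-BOs and ISC-BOs all 10 genes were tested and 0 were called, where 3.05% of 11303 genes were called. At so small a share, 0 of 10 does not set these genes apart from the rest. At an unadjusted p under 0.05 there were 3 (Alpi, Dpp4 and Fabp2), and DESeq2 also called 0. Without the 2 dediHep-BO libraries rich in collagen transcripts 0 were called as well, with 1 library left in that group. Alpi was lower in every dediHep-BO library than in every ISC-BO library, by a log2 difference of -0.63 (95% interval -1.02 to -0.25, FDR = 0.0603). Dpp4 was higher in every dediHep-BO library, by 0.95 (0.27 to 1.63, FDR = 0.102), though the nearest libraries almost touched (83.8 and 83.0 CPM). Fabp2 was lower by -0.73 (-1.38 to -0.09, FDR = 0.166) with overlapping ranges.

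For the other genes the intervals show what these libraries can tell. They ran from -0.43 to 0.33 for Vil1, from -0.84 to 0.57 for Fabp1, from -0.13 to 1.12 for Mep1a, from -0.46 to 1.27 for Sis, from -1.39 to 0.0022 for Mep1b, from -1.19 to 0.50 for Anpep and from -2.17 to 0.27 for Lct. A difference of the size that the threshold asks for is outside all of these except that of Lct, whose counts were the lowest. Other genes differed more. Among 8 hydrolases tested, 3 were called lower in dediHep-BOs, led by Ace (-2.95) and Ggt1 (-2.25), Slc2a5, the fructose transporter, was lower (-3.87), and of the transcription factors Prdm1 was higher (2.68) and Gata4 lower (-2.45). Of 10 genes of microvillus structure and 9 of lipid handling 0 were called.

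In the intestinal series, ISC-BOs held more than FIPC-SOs of 6 genes, with 6.62% of 11644 genes called and 4% called higher. Sis led with 142 ± 59.7 against 2.23 ± 0.499 CPM (log2 fold change 5.93 ± 0.47 SE, FDR = 3.02e-05), followed by Fabp1 (4.90 ± 0.69 SE), Lct (4.51 ± 0.80 SE), Alpi (4.24 ± 0.35 SE), Fabp2 (3.84 ± 0.43 SE) and Mep1b (2.93 ± 0.41 SE). Mep1a (1.59 ± 0.36 SE, FDR = 0.0143) and Dpp4 (1.29 ± 0.34 SE, FDR = 0.0309) stood below the fold threshold, and Anpep (FDR = 0.119) and Vil1 (FDR = 0.324) did not pass the test. For Mep1a, Dpp4 and Anpep every ISC-BO library lay above every FIPC-SO library, while the ranges of Vil1 overlapped. Without the FIPC-SO library rich in collagen transcripts 6 genes were called.

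The step from spherical to budding organoid was thus compared between the 2 origins in a fit of all 4 groups. For the intestinal organoids this step is a difference between separate cultures, since ISC-BOs were grown from adult crypts and not from FIPC-SOs. The fit used the same libraries as the comparisons above and is not a separate line of support. The step of dediHep organoids was larger for 6 of 10 genes, where 9.46% of 12379 genes were called and 5.38% called in that direction. The log2 difference between the steps was 9.32 ± 1.10 SE for Fabp2 (FDR = 0.000284), 8.52 ± 1.61 SE for Fabp1 (FDR = 0.00619), 5.86 ± 1.39 SE for Sis (FDR = 0.0207), 4.41 ± 0.76 SE for Mep1a (FDR = 0.00249) and 4.22 ± 0.87 SE for Mep1b (FDR = 0.00748). For the first 3 of these the dediHep-SOs had no count, so the size depends on the prior count. Alpi (2.62 ± 0.98 SE, FDR = 0.0983) was at the edge of the threshold and was lost under DESeq2 (adjusted p = 0.227) and without any 1 of 10 of the 13 libraries (FDR = 0.127 to 0.242).

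Of the other genes, Vil1 (-0.28 ± 0.33 SE), Dpp4 (0.83 ± 0.59 SE), Anpep (0.43 ± 0.95 SE) and Lct (2.03 ± 1.75 SE) were not called. Without the 3 libraries rich in collagen transcripts 4 genes were called, Fabp1, Fabp2, Sis and Mep1a, and Mep1b was lost beside Alpi (3.88, FDR = 0.110). Among the wider lists Cdx1 (7.58), Slc5a1 (5.58), Mttp (4.29) and Ush1c (5.16) led those called in the same direction, 3 of 10 transcription factors, 3 of 9 transporters, 4 of 9 genes of lipid handling and 2 of 10 genes of microvillus structure. The hydrolases Ace (-5.92) and Ggt1 (-5.01) were called in the opposite direction.

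Over the 16 group means on the log2(CPM + 1) scale, the genes fell into patterns that are given as a description, since groups share origins and libraries. Sis ran with Lct (r = 0.963) and Mep1b (0.953), and Alpi with Mep1a (0.930). Dpp4 ran with Anpep (0.885) and hardly with Vil1 (-0.097), and Fabp1 with Fabp2 (0.866). Of 12770 other genes, those most like the mean of the 8 genes not set apart were Cyp2c66 (r = 0.980), Npc1l1 (0.972), Ceacam18 (0.971), Ppp1r14d (0.970) and Clec2e (0.970), each with its highest group mean in ISC-BOs. Those most like Fabp1 were Cyp4f14 (0.9748), Cyp2c68 (0.9690) and Ces2a (0.9676), highest in FH or at 3 h. For Anpep they were Nadk2 (0.955), 2610528J11Rik (0.942) and 9430038I01Rik (0.937), of which only 1 stayed among the first 3 with a pseudocount of 4.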

How the data were processed

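The authors deposited a table of UMI counts, whole numbers per Ensembl gene and not normalized, for 49 CEL-Seq2 libraries, made with the celseq2 pipeline (submitters' processing notes: bcl2fastq 2.20, Bowtie2 2.3.1, HTSeq 0.6.0, GRCm38). Identifiers were paired with symbols in GENCODE M21. No column was left out. Replicates differed beyond counting noise (chi-square per degree of freedom 5.62 to 68.0 over 54 pairs).

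Counts were tested with edgeR 4.0.16 (R 4.3.3) after TMM and filterByExpr (minimum count 10, minimum total 15), in 14 fits of 2 groups, 1 of the time course and 1 of 4 organoid groups, with Benjamini-Hochberg adjustment over 10400 to 12443 genes. SEs follow from the F statistic. The fits were tested on simulated counts. The members and gene lists were chosen with earlier results of these data known, lists from general knowledge. Named are the 10 members and, per list and direction, at most the 2 called genes with the smallest p, with Cdx2, Alb and Krt19, besides Col1a1 and Col3a1, which were named for the libraries that stood apart after their values were seen. A gene of the hydrolase list is not reported here.

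Pairing was checked as the correlation of deviations from group means. Culture codes in the labels paired aggregates with monolayers (r = 0.179 to 0.357). Title numbers of dediHep-BOs and dediHeps also passed (0.161 to 0.193), but no label ties these cultures to each other. Verteporfin and DMSO had only 2 pairs (r = 0.436), fewer than the 3 the check asked for, and the remaining pairings did not pass. Alternatives were RLE, DESeq2 1.42.0, other filters and thresholds, all libraries in 1 fit, a UMI correction, a replicate block and leaving out libraries. Intervals and floors cover counting error only where counts are given.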

Additional observations from a re-analysis of the deposited data

Results flagged for a closer look

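Single libraries stood far from the others of their group for 4 values, out of 18 groups of values examined. About 1 in 20 would do so by chance if values were independent and normally spread. The flagged dediHep values all come from 1 library and are not independent. In dediHeps replicate 3 was high for Alpi (131 CPM, next highest 15.6), Mep1a (16 CPM, next 3.52) and Anpep (1.81 CPM, 6 counts). It also held the most Cdx2 and Krt19. In ISC-BOs replicate 3 was low for Lct (5.08 CPM, 12 counts, against 10.5 to 11.3 CPM).

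The step from spherical to budding organoid differed between the dediHep and the intestinal series, by a test of the difference itself, for Alpi (2.62 on the log2 scale), Sis (5.86), Mep1a (4.41), Mep1b (4.22), Fabp1 (8.52) and Fabp2 (9.32). Alpi was at the edge of the threshold (edgeR FDR = 0.0983) and was lost under DESeq2 (adjusted p = 0.227). The call of Mep1b depended on the libraries rich in collagen transcripts, as given above.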

How the results depend on the processing

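Of the alternatives, 310 counts of called genes stayed within 1.5 times and 11 did not. Values of tested genes kept direction and side of the threshold in 2039 cases, lost the call in 48, gained it in 17 and changed sign in 22. The cause of these changes was not tested. For CLiPs against dediHeps (0 called), 1 gene was called without a low-count filter, with a filter of 0.5 CPM, by DESeq2, and without dediHep replicate 1 (leaving out 1 library, 0 to 1), and 3 with all 49 libraries in 1 fit. For dediHep-SOs against dediHeps (2 called), all libraries in 1 fit gave 5 and a replicate block by culture code gave 1, where the codes did not pass the pairing check. For dediHep-SOs against FH (5), leaving out 1 library gave 3 to 5. For dediHep-BOs against dediHeps (8), leaving out the libraries rich in collagen transcripts, chosen after seeing the data, gave 5. The block changed no call for aggregates (by culture code) or for dediHep-BOs against dediHeps (by title number), the pairings that passed the check. By title number it gave 4 in place of 6 for dediHeps against FH, where the numbers did not pass.

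Changes of sign concerned log2 fold changes that were not called. Dpp4 in dediHep-BOs against FH was -0.056 with RLE scaling, -0.056 by DESeq2, -0.0011 with all libraries in 1 fit and -0.21 to 0.35 on leaving out 1 library. Dpp4 in dediHep-SOs against FIPC-SOs was -0.087 with the replicate block and -0.68 to 0.39 on leaving out 1 library. Between the budding organoids Fabp1 was 0.13 with the replicate block, 0.16 without the collagen-rich libraries and -0.35 to 0.13 on leaving out 1 library, Sis -0.35 without the collagen-rich libraries and -0.16 to 0.74, and Vil1 -0.090 to 0.0074. Leaving out 1 library gave -9.14 to 0.77 for Alpi in aggregates against dediHeps, -0.44 to 0.044 for Anpep in ISC-BOs against FH, -0.087 to 1.34 for Anpep and -0.65 to 0.14 for Fabp2 at 3 h, and -0.97 to 2.57 for Lct and -0.18 to 2.76 for Anpep in the difference between the steps. Without TMM factors the mean of Fabp1 in FH was 1197 CPM and of Fabp2 106 CPM. Dpp4 then stood at 100, 48.7 and 47.9 CPM in FH and at 134, 95.3 and 113 CPM in dediHep-BOs. Genes with few counts, Lct and Anpep above all, are limited by depth.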

Other observations

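Markers of other intestinal cell types were present beside the enterocyte genes. The summed level of 8 markers of stem, goblet, enteroendocrine, Paneth and tuft cells was 3.31 to 36.9 CPM in dediHeps, 709 to 982 CPM in dediHep-SOs, 648 to 1149 CPM in FIPC-SOs, 2495 to 3390 CPM in dediHep-BOs and 2192 to 2890 CPM in ISC-BOs. The stem cell marker Lgr5 (log2 fold change 7.54) and the tuft cell marker Dclk1 (6.36) were called higher in dediHep-SOs than in dediHeps. Dclk1 was also called higher in hepatocytes 14 days after plating than in FH (4.704) and in CLiPs than in dediHeps (3.896). From dediHep-SOs to dediHep-BOs it was called lower (-4.375), where 4 others of the 8 markers were called higher. Whether Dclk1 stands for tuft cells in these cultures was not tested. In aggregates the sum reached 450 to 1102 CPM, but 3 of the 8 markers had no count there. Only 1 of the 8, Tff3, a goblet cell peptide, could be tested against monolayers. It was called higher in aggregates (log2 fold change 6.37, FDR = 0.00439), while Sis and Mep1b stayed without a count.

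Against FIPC-SOs, dediHep-SOs were lower in the Paneth cell gene Lyz1 (-8.36) and the enteroendocrine gene Chga (-7.08) and higher in Dclk1, a tuft cell marker (6.80). Between the 2 kinds of budding organoid 0 of 7 tested markers of these cells were called. Spp1, osteopontin, of the bile duct list, was the gene of the 5 on that list called higher in dediHep-BOs than in ISC-BOs (9.31, FDR = 0.00417).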
